A study of Mus musculus with 6 samples.

Results

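The mesothelial marker genes are 7 genes used to recognise mesothelium: Wt1, Upk3b, Upk1b, Lrrn4, Gpm6a, Msln and Muc16. They were taken by name as a list, with earlier results of these data known. Of the 7, 6 have a row among the 24062 genes of the deposited count tables. Muc16 has none under its symbol or its older names and is not analysed here. Their levels were read in 6 RNA sequencing libraries from cells sorted out of the dorsal pancreatic buds of mouse embryos, given as CPM (a gene's counts relative to library depth, with depths set between libraries by the TMM method).

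There was 1 library per group and there were no replicates, so no test across samples and no p-value is given. Mesenchyme was sampled at E12.5, and epithelium at both E12.5 and E14.5. Every combination came from controls and from Pbx mutants. The control genotype is named as mTmG, a reporter that turns from red (Tomato) to green (GFP) where Cre has acted. The mutant genotype includes mTmG+/-, Nkx2.5-Cre+/- and Pbx2+/-, so its Cre is expressed from the locus of Nkx2-5, a factor of splanchnic mesenchyme. All groups thus carried the reporter. Flow cytometry sorted Tomato from GFP cells, and the frozen fractions were combined before RNA was purified, so each library is a pool. How mTmG controls gave GFP cells is not stated in the labels.

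Mesothelium is the sheet of flat epithelial cells that covers the organs of the body cavities, the embryonic pancreas included. It arises from the coelomic epithelium of the splanchnic mesoderm, carries traits of both epithelium and mesenchyme, and in the embryo gives off cells that enter the mesenchyme beneath it. Wt1 is the zinc-finger transcription factor by which coelomic epithelium is usually traced, and it also acts in kidney, gonad and spleen development. The other members encode surface proteins: the uroplakins Upk3b and Upk1b, the membrane proteins Lrrn4 and Gpm6a that were named for their presence in neurons, and the glycoprotein mesothelin (Msln), which binds the mucin Muc16.

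In mm10 coordinates from the GENCODE M21 annotation, Wt1 lies at chr2:105126529-105173616 on the plus strand and Lrrn4 at chr2:132868305-132880891 on the minus strand. Upk3b lies at chr5:136038496-136046487 (plus), Gpm6a at chr8:54954843-55060871 (plus) and Upk1b at chr16:38773184-38800328 (minus). Msln lies at chr17:25748613-25754378 (minus) and Muc16 at chr9:18495455-18674530 (minus). No pair of members is adjacent.

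RefSeq promoter windows, which run from 250 bases before to 50 bases after a start site in GRCm38.p6, were matched by symbol for 4 members. These were Upk3b, Lrrn4, Muc16 and Gpm6a, the last with 2 windows. Both Gpm6a windows lie before the gene's start in GENCODE, the first much farther from it. The 3 windows below are shown because each holds the letters GGAATG, the core that Tead factors bind, on either strand. Capitals mark those letters, or CATTCC where they read on the opposite strand. Counted in bases from the start site, they begin at -241 in Upk3b (chr5:136038246-136038545, plus strand), at -196 in Lrrn4 (chr2:132880813-132881112, minus strand) and at -125 in the first window of Gpm6a (chr8:54779184-54779483, plus strand).
Upk3b: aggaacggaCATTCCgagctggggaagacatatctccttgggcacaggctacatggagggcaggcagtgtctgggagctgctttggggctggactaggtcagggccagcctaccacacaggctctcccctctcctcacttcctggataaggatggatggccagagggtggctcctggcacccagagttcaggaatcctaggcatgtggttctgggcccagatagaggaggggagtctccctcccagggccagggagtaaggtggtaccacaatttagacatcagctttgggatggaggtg
Lrrn4: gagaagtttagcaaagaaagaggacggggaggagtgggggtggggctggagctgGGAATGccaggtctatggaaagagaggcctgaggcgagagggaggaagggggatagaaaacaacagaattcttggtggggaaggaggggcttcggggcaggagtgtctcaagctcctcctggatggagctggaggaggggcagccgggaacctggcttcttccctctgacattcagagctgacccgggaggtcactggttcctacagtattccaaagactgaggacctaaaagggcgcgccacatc
Gpm6a: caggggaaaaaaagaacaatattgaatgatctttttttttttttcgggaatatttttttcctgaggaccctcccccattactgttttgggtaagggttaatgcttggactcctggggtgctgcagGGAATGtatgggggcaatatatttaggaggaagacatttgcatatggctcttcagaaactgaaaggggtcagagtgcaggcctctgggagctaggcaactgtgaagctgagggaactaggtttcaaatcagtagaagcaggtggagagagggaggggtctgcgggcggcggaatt
Thus 3 of the 5 windows held GGAATG, against 14.7% of all 32851 windows. TGACAG, the core that Meis and Pknox factors bind, was in 1 of the 5, that of Muc16, against 19.2% of all windows. The letters TGATTGAC, a composite for Pbx with Meis or Hox, were in 0 of the 5 and in 0.8% of all windows. TGATNNAT, a composite for Pbx with Hox, was in 0 of the 5 and in 8.8% of all, and GCGTGGGNG, a motif shared by Wt1 and Egr1, in 0 of the 5 and in 1.9% of all. Both strands were searched, and the motifs as searched do not overlap in these windows. A match describes the letters and does not show a bound site.

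Depth ranged from 14032569 to 20276045 counts on genes per library. The labels were checked against marker genes. General epithelial genes (a list of 20, with Epcam and Krt8) summed to between 3463 and 7486 CPM in the 4 epithelial libraries and to 131 and 109 CPM in mesenchyme. General mesenchymal genes (also 20, with Col3a1) summed to 11207 CPM in control and 9858 CPM in mutant mesenchyme. They also summed to between 5512 and 12258 CPM in epithelium, so transcripts of mesenchymal genes are abundant in both fractions. The 10 endothelial genes summed to 37.5 and 38.8 CPM in mesenchyme, control first, and to between 219 and 338 CPM in epithelium. The 8 leukocyte genes summed to 46.2 and 10.4 CPM in mesenchyme and to between 177 and 308 CPM in epithelium. The epithelial libraries thus also hold transcripts of other cell types, and which cells carry the members was not tested. Pbx2 stood at 89.9 CPM in control and 56.0 CPM in mutant mesenchyme. In epithelium it stood at 54.5 and 49.7 CPM at E12.5 and at 34.0 and 47.3 CPM at E14.5, control first. The epithelial levels do not show the loss of 1 copy, so those libraries are called the libraries labelled mutant. Nkx2-5 stood at 41.2 and 66.8 CPM in mesenchyme and at most at 3.68 CPM in epithelium.

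Wt1 was present in every library. Its level was 66.1 CPM in control and 49.1 CPM in mutant mesenchyme, 34.1 CPM in control epithelium and 76.8 CPM in the epithelium labelled mutant at E12.5, and 17.4 and 50.6 CPM in the same order at E14.5. The highest level was therefore in an epithelial library and the lowest in another, 4.41-fold apart. Tlx1, a spleen factor, was higher in mesenchyme, at 109 and 237 CPM, than in epithelium, at 15.9 and 36.7 CPM at E12.5 and 4.86 and 28.5 CPM at E14.5, control first. The 10 gonad and kidney genes, tissues that also use Wt1, summed to 79.1 and 89.8 CPM in mesenchyme, 178 and 156 CPM in E12.5 epithelium and 97.6 and 136 CPM in E14.5 epithelium. Podxl, between 66.0 and 152 CPM, made up most of that sum except in mutant mesenchyme. There it stood at 40.8 CPM, below Six2. Nphs1 reached 22.1 CPM in epithelium and Six2 43.3 CPM in mesenchyme, while Nr5a1 of the gonad had at most 15 counts in any library and Pax2 and Pax8 of the kidney at most 1 count. The part of these tissues in the Wt1 values was not tested. Wt1os, which starts beside the annotated start of Wt1 and is transcribed away from it on the other strand, stood between 2.47 and 5.89 CPM. The sources used here do not give a strand setting for the counting, and near their shared border the reads of the pair cannot be told apart.

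Of the uroplakins, Upk3b pairs with Upk1b in the plaques of the bladder lining, and outside it marks mesothelium of several organs. Upk3b stood at 31.9 CPM in control and 20.6 CPM in mutant mesenchyme, at 55.2 and 69.1 CPM in epithelium at E12.5 and at 56.2 and 94.7 CPM at E14.5, control first. Both mesenchyme libraries were thus below all 4 epithelial ones. Upk1b, a tetraspanin, stood at 19.7 and 15.4 CPM in mesenchyme, at 34.1 and 52.9 CPM in E12.5 epithelium and at 13.2 and 48.9 CPM in E14.5 epithelium. Its E14.5 control level lay below both mesenchyme libraries. Its spread from lowest to highest library was 4.02-fold, and that of Upk3b 4.6-fold.

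The plaque partners of the bladder lining were scarce. Upk1a had at most 108 counts, in E14.5 control epithelium, the only library where it passed 5 CPM. Upk3a had at most 69 counts and Upk2 at most 18 counts in any library, and Krt5, a basal urothelial keratin, had 1 count over all 6. The list of 6 urothelial genes summed to 18.4 and 8.15 CPM in E12.5 epithelium, 23.6 and 8.04 CPM in E14.5 epithelium, and 0.738 and 0.193 CPM in mesenchyme, control first. It was thus lower in each mutant-labelled library than in its control, also where Upk1b and Upk3b were higher. Trp63, another gene of this list, made up most of the sum in E12.5 control epithelium, at 12.2 CPM. In E14.5 control epithelium Trp63 and Upk1a both passed 5 CPM, so transcripts of this list were low but not absent in epithelium. Upk3bl, a relative of Upk3b, had between 3 and 61 counts, against 320 to 1318 counts of Upk3b, and how reads that fit both were counted is not known here.

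Lrrn4 encodes a leucine-rich repeat membrane protein. It stood at 22.6 CPM in control and 6.82 CPM in mutant mesenchyme, at 22.1 and 39.5 CPM in E12.5 epithelium, and at 31.4 and 27.3 CPM in E14.5 epithelium. Mutant mesenchyme was the lowest by far, and the other 5 libraries lay within 22.1 to 39.5 CPM. Gpm6a encodes a tetraspan membrane glycoprotein of neurons that mesothelium also makes. It stood at 1.81 and 4.37 CPM in mesenchyme, at 11.7 and 15.2 CPM in E12.5 epithelium and at 22.5 and 44.0 CPM in E14.5 epithelium. It had the widest range of the members at 5 CPM or more, 24.3-fold, and in each pair the mutant-labelled library was the higher. Tubb3, a tubulin of neurons, was at 0.604 CPM and 0 in mesenchyme, 19.7 and 19.1 CPM in E12.5 epithelium and 29.7 and 66.2 CPM in E14.5 epithelium. The most abundant neuronal genes ran otherwise at E12.5, with Gap43 at 249 and 123 CPM in mesenchyme and 67.1 and 114 CPM in epithelium, and Nefl at 73.6 and 176 CPM in mesenchyme and 40.4 and 50.2 CPM in epithelium. The 12 neuronal genes summed to 354 and 353 CPM in mesenchyme, 231 and 289 CPM in E12.5 epithelium and 204 and 462 CPM in E14.5 epithelium. Although this sum was higher in mesenchyme at E12.5, most of the genes were lower there. Their median log2 ratio, mesenchyme over epithelium with no read set to 3 counts, was -2.59 in controls and -2.92 in the mutant pair. The part of neuronal cells in the Gpm6a values was not tested.

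Msln, which encodes mesothelin, was nearly absent. It had 13 counts (0.612 CPM) in E12.5 control epithelium, 1 count (0.0643 CPM) in mutant mesenchyme and 66 counts (4.74 CPM, exact Poisson interval 3.67 to 6.03) in the E14.5 epithelium labelled mutant. The other 3 libraries had no read, which allows up to 0.197 CPM in the E12.5 epithelium labelled mutant, 0.201 CPM in control mesenchyme and 0.205 CPM in E14.5 control epithelium. It reached 5 CPM in 0 of the 6 libraries, Gpm6a did in 4 and the 4 other members with a row did in all 6, so the best known surface marker of mesothelium is at or near 0 in libraries where Wt1 and the uroplakins are present. Its ligand Muc16 has no value, so the binding pair cannot be described from these tables.

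**Figure D1:**
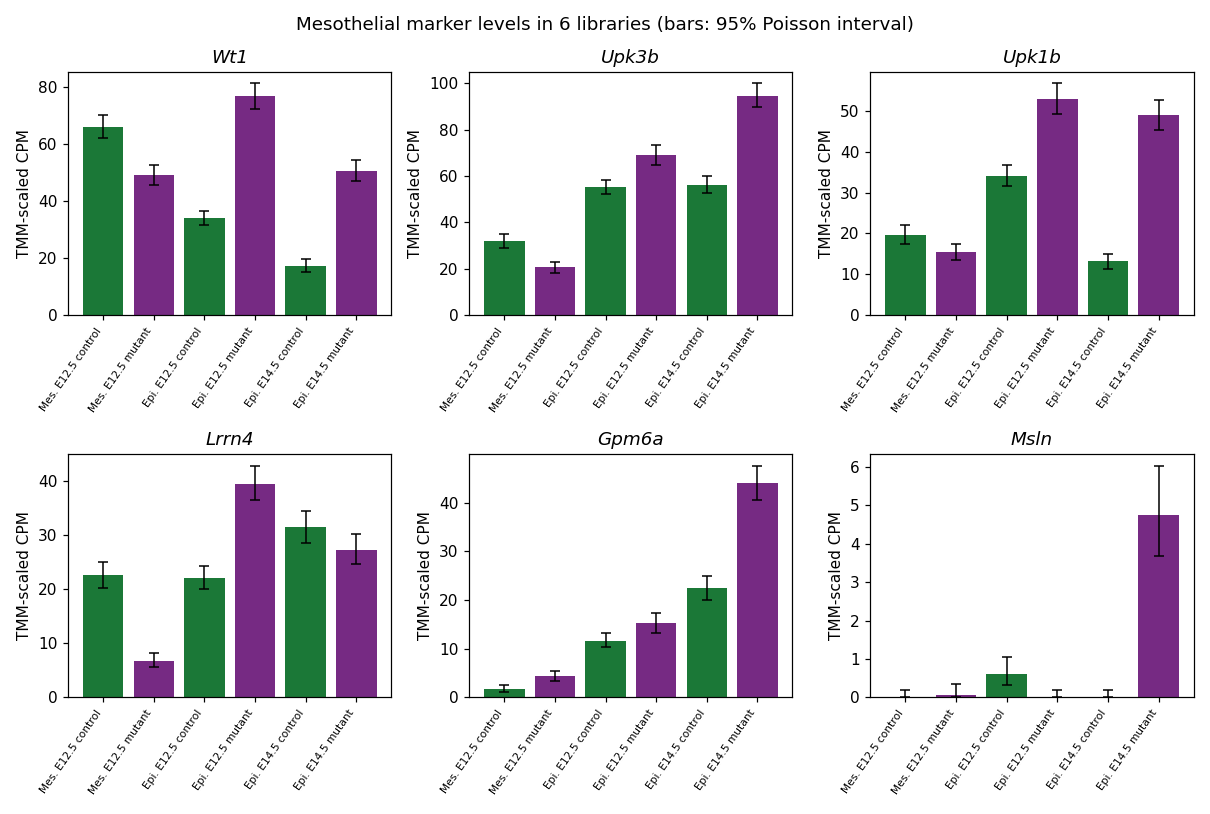
Level of each member in TMM-scaled CPM (y axes, each with its own scale from 0) in the 6 libraries (x axes), with mesenchyme (Mes.) before epithelium (Epi.). Green bars are control and purple bars mutant-labelled libraries, and error bars are exact 95% Poisson intervals of a single library, or the limit of 3 counts where no read was found. Wt1 is highest in the E12.5 epithelium labelled mutant at 76.8 CPM, Lrrn4 is lowest in mutant mesenchyme at 6.82 CPM, and Msln passes 1 CPM only in the E14.5 epithelium labelled mutant.

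Levels of different genes were set against each other per kilobase of exon. In E12.5 control epithelium Upk1b (16.3 CPM per kb) and Upk3b (15.7 CPM per kb) led and differed by less than counting error, followed by Lrrn4 (5.95) and Wt1 (5.50), which also lay within counting error of each other, and Gpm6a (3.65 CPM per kb). In its counterpart labelled mutant the order was Upk1b (25.3 CPM per kb), Upk3b (19.6), Wt1 (12.4), Lrrn4 (10.6) and Gpm6a (4.74), each step beyond counting error. In both mesenchyme libraries Wt1 led, at 10.7 CPM per kb (control) and 7.93 (mutant), ahead of Upk1b at 9.41 and 7.39 by less than counting error. Gpm6a was the lowest of the 5 more abundant members there, at 0.563 and 1.36 CPM per kb, in the mutant within counting error of Lrrn4 at 1.83. In E14.5 control epithelium the order was Upk3b (15.9 CPM per kb), Lrrn4 (8.46), Gpm6a (6.99), Upk1b (6.30) and Wt1 (2.81), with Gpm6a and Upk1b within counting error. In the E14.5 epithelium labelled mutant it was Upk3b (26.8 CPM per kb), Upk1b (23.4), Gpm6a (13.7), Wt1 (8.17) and Lrrn4 (7.35), the last pair within counting error.

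The balance between members was also read inside each library, where scaling between libraries has no part. Wt1 had 2.08 reads per Upk3b read in control and 2.39 in mutant mesenchyme. In epithelium it had 0.616 reads per Upk3b read in the control and 1.11 in the library labelled mutant at E12.5, and 0.309 and 0.535 at E14.5. Wt1 thus made up 46.6% and 51.0% of the members' reads in mesenchyme, 21.6% and 30.3% in E12.5 epithelium and 12.4% and 18.7% in E14.5 epithelium. Upk1b had between 0.617 and 0.766 reads per Upk3b read at E12.5 in both fractions, 0.234 in E14.5 control epithelium and 0.517 in its mutant-labelled counterpart. Lrrn4 had 0.709 reads per Upk3b read in control and 0.331 in mutant mesenchyme, 0.400 and 0.572 in the E12.5 epithelial pair, and 0.559 and 0.288 in the E14.5 pair. The members did not therefore keep a fixed ratio across libraries.

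**Figure D2:**
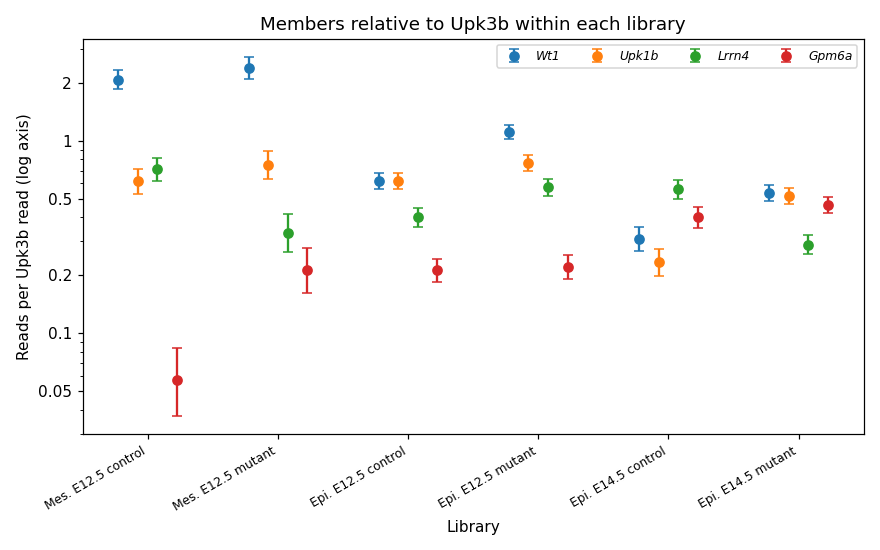
Reads of Wt1, Upk1b, Lrrn4 and Gpm6a per Upk3b read (y axis, log scale) in each of the 6 libraries (x axis), with exact 95% counting intervals as error bars. Wt1 lies above 2 in both mesenchyme libraries and falls to 0.309 in the E14.5 control epithelium, and Gpm6a ranges from 0.0568 in control mesenchyme to 0.465 in the E14.5 epithelium labelled mutant.

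Each comparison below is the ratio of 2 libraries with an exact 95% interval that covers counting error only. A gene is called where the ratio is at least 2-fold, the interval leaves out 1 and the gene reaches 5 CPM in at least 1 of the 2 libraries. Real spread is wider. Genes at 20 to 100 CPM, the range of most members, had log2 ratios with an SD between 0.39 and 1.15 in the 7 comparisons, of which counting gives 0.08 to 0.12, and between 1.45% and 12.5% of them were called. The low ends are those of the E12.5 epithelial genotype pair and the high ends those of the control fraction pair. Genes at 5 to 20 CPM spread more. By the mean of the 2 libraries, Lrrn4 and Upk1b in the mesenchyme genotype pair and Gpm6a in both fraction pairs lay in that range. So did Gpm6a in the E12.5 epithelial genotype pair and in the control stage pair. There the SD was 0.72 in the mesenchyme genotype pair, with 12.7% called. It was 1.70 in the control and 1.71 in the mutant fraction pair, with 34.7% and 33.8% called. In the E12.5 epithelial genotype pair it was 0.66 and in the control stage pair 1.07, with 11.7% and 29.4% called. The 7 comparisons use 6 libraries and so share them. In bulk RNA, fewer mesothelial cells and less RNA per cell cannot be told apart.

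In control embryos at E12.5, the members divided between the fractions. Wt1 was 1.94-fold higher in mesenchyme (interval 1.76 to 2.14), short of the threshold, while Upk3b was 1.73-fold and Upk1b 1.74-fold lower and Lrrn4 was within 1.02-fold. Gpm6a alone was called, 6.48-fold lower in mesenchyme (4.34 to 10.0), and Msln was at least 3.04-fold lower there but never reached 5 CPM. So 1 of 5 measured members was called lower and 0 higher, where 13.6% of all 12066 measured genes were called lower and 7.0% higher. Over the 6 members, with Msln at its bound, the median log2 ratio was -0.80, against 0.03 for all measured genes. Their summed level was 142 CPM in mesenchyme and 158 CPM in epithelium (1.11-fold lower, 1.05 to 1.17), and without Upk3b the sum turned to a log2 ratio of 0.10. General mesenchymal genes summed 2.03-fold higher in mesenchyme, and relative to their median the Wt1 log2 ratio went from 0.96 to -0.28.

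Between mutant mesenchyme and the E12.5 epithelium labelled mutant the members differed more. All 5 measured members were lower in mesenchyme: Upk3b 3.36-fold (2.96 to 3.81), Upk1b 3.43-fold (2.96 to 3.97), Lrrn4 5.79-fold (4.70 to 7.19) and Gpm6a 3.49-fold (2.65 to 4.64), with Wt1 at 1.56-fold (1.43 to 1.71) not called. So 4 of 5 were called lower and 0 higher, where 12.9% of all measured genes were called lower and 5.42% higher. For the 5 the median log2 ratio was -1.78, against 0.03 for all measured genes, and the summed levels were 96.4 and 253 CPM (2.63-fold lower, 2.48 to 2.79). Wt1 thus lay on opposite sides in the 2 fraction comparisons, and the difference between them was not tested.

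Other genes of coelomic epithelium were described from lists of 12 genes each. Of the transcription factors, 9 were measured: 3 were called higher in mesenchyme in both genotypes, namely Nr2f2, Tcf21 and Hand2, and 2 lower in the controls and 3 lower in the mutant pair. Nr2f2, a nuclear receptor of mesenchyme, was at 463 CPM in the mesenchyme and 140 CPM in the epithelium of controls, and Gata4, a factor of coelomic and endodermal cells alike, at 2.01 and 74.1 CPM. The shares of all measured genes called in these comparisons are those given above, 13.6% lower and 7.0% higher in controls and 12.9% lower and 5.42% higher in the mutant pair. Of the secreted proteins and enzymes, 1 of 10 was called lower and 1 higher in control mesenchyme, and 5 of 9 lower and 1 higher in the mutant pair. Of the surface and adhesion genes, 6 of 11 were called lower and 2 higher in control mesenchyme, and 7 of 11 lower and 1 higher in the mutant pair. Ezr, the linker of microvilli to actin, was at 74.8 CPM in the mesenchyme and 330 CPM in the epithelium of controls, and Itga8, an integrin subunit of mesenchymal cells, at 186 and 32.6 CPM. All 4 simple keratins, which mesothelium shares with pancreatic epithelium, were called lower in mesenchyme in both genotypes. Between control and mutant mesenchyme, Krt8 stood at 12.1 and 5.59 CPM, Krt18 at 18.4 and 11.2 CPM and Krt7 at 16.8 and 12.2 CPM, with Krt19 the other way at 6.17 and 9.97 CPM.

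**Figure D3:**
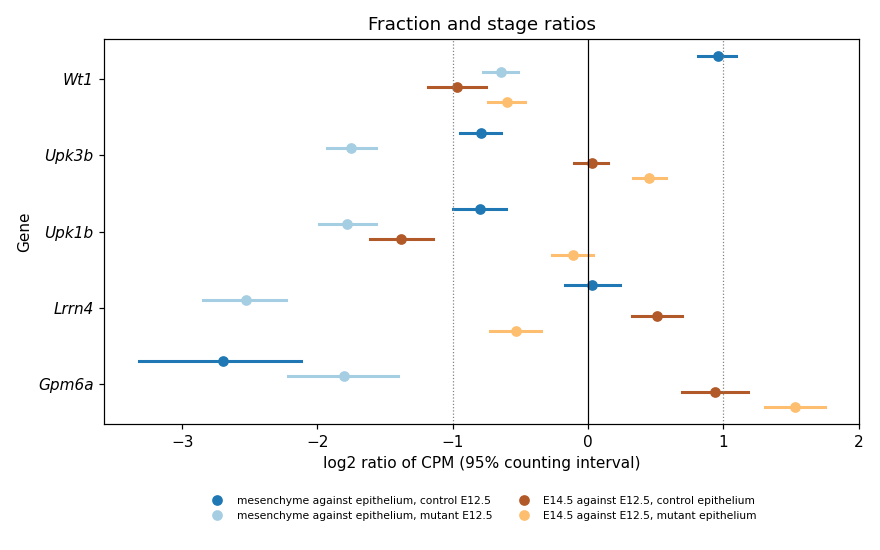
Log2 ratios of CPM (x axis) for 5 members (y axis) between fractions at E12.5 (blue shades, mesenchyme over epithelium) and between stages in epithelium (brown and orange, E14.5 over E12.5), with 95% counting intervals as lines and dotted lines at 2-fold. Wt1 is at 0.96 in the control fraction pair and at -0.64 in the mutant pair, and Lrrn4 is at 0.51 and -0.53 in the 2 stage pairs.

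In E12.5 mesenchyme, Lrrn4 was the member that was called lower in the mutant, from 22.6 to 6.82 CPM (3.32-fold, 2.66 to 4.16). Upk3b was 1.55-fold lower (1.34 to 1.79), Wt1 1.35-fold (1.22 to 1.48) and Upk1b 1.27-fold (1.07 to 1.52), none of them called. Gpm6a went the other way, 2.41-fold higher (1.53 to 3.92), from 27 to 68 counts, but stayed below 5 CPM. So 1 of 4 measured members was called lower and 0 higher, where 3.50% of all 11188 measured genes were called lower and 1.96% higher. Over the 5 members that had a ratio its log2 median was -0.43, against -0.01 for all measured genes, and the summed level went from 142 to 96.4 CPM (1.47-fold lower, 1.38 to 1.58).

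The wider mesothelial lists in E12.5 mesenchyme are read against the same 3.50% of all measured genes called lower. Of 9 measured secreted proteins and enzymes, 3 were called lower and 0 higher, among them Aldh1a2, which makes retinoic acid. Its level was 40.0 CPM in control and 15.6 CPM in mutant mesenchyme (2.56-fold lower, 2.2 to 2.99). Of 11 surface genes 1 was called lower, and of 8 measured coelomic transcription factors 0 were called in either direction, with Bnc1, a zinc-finger factor of mesothelium, at 563 and 402 counts. The median log2 ratios of these 3 lists were -0.13, -0.41 and -0.55, although the summed level of the coelomic transcription factors went from 1332 to 1526 CPM, a log2 ratio of 0.20. General mesenchymal genes summed 1.14-fold lower in the mutant, and the 8 leukocyte genes went from 46.2 to 10.4 CPM. The part of other cells in the Lrrn4 ratio was not tested, and relative to the general mesenchymal genes its log2 ratio was -1.5 in place of -1.73.

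In E12.5 epithelium, all 5 measured members were higher in the library labelled mutant. Wt1 was called, going from 34.1 to 76.8 CPM (2.26-fold, 2.05 to 2.48). Lrrn4 was 1.79-fold higher (1.58 to 2.02), Upk1b 1.55-fold (1.40 to 1.71), Gpm6a 1.30-fold and Upk3b 1.25-fold, none of them called. Msln went from 13 counts to none, at least 3.11-fold lower. So 1 of 5 was called higher and 0 lower, where 1.79% of all 11991 measured genes were called higher and 3.21% lower. The median log2 ratio of the 6 members was 0.50 with Msln at its bound, against 0.00 for all measured genes, and the summed level went from 158 to 253 CPM (1.61-fold higher, 1.53 to 1.68).

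General mesenchymal genes summed 1.13-fold higher in that library and spleen and splanchnic factors 2.04-fold higher, and their part in the Wt1 ratio was not tested. Relative to the median of the general mesenchymal genes the Wt1 log2 ratio was 0.97 in place of 1.17. On that scale no member was called, and the share of all genes called was not computed. Of the wider lists, 0 of 9 measured coelomic transcription factors were called, and 1 of 11 surface genes was higher and 0 lower. Of 9 secreted proteins and enzymes 1 was higher and 1 lower. The shares of all measured genes called in this pair are those given above, 1.79% higher and 3.21% lower. The count table of E12.5 control epithelium carries a name of another form and date than the other 5. What that date marks is not stated, and in the 3 comparisons that use the table anything that goes with it and the group cannot be told apart.

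At E14.5 the same epithelial comparison gave the largest ratios of the genotype pairs for Upk1b and Wt1. Upk1b went from 13.2 to 48.9 CPM (3.72-fold higher, 3.16 to 4.39) and Wt1 from 17.4 to 50.6 CPM (2.91-fold higher, 2.52 to 3.37), and both were called. Gpm6a was 1.96-fold (1.71 to 2.25) and Upk3b 1.68-fold higher (1.54 to 1.84), not called, and Lrrn4 was 1.15-fold lower (1.0 to 1.32). Msln went from no read to 66 counts, at least 23.1-fold higher, at a level just under 5 CPM. So 2 of 5 measured members were called higher and 0 lower, where 9.64% of all 12145 measured genes were called higher and 6.40% lower. For the 6 members the median log2 ratio was 1.26 with Msln at its bound, against -0.03 for all measured genes, and the summed level went from 141 to 270 CPM (1.92-fold higher, 1.82 to 2.03).

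General mesenchymal genes summed 1.97-fold higher in that pair, from 6213 to 12258 CPM, with 13 of 20 called higher, and general epithelial genes went from 7486 to 4028 CPM. Relative to the median of the general mesenchymal genes, the sum of the members turned from a log2 ratio of 0.94 to -0.23. On that scale Wt1 was at 0.37 and Upk1b at 0.72, Upk3b at -0.42 and Gpm6a at -0.20. Lrrn4 at -1.38 was the single member called, as lower, on a scale that shifts all genes alike. The share of all genes called on it was not computed. The direction for Upk3b, Gpm6a and the sum thus depends on whether members are read against all genes or against mesenchymal genes. The spleen and splanchnic factors summed to 91.0 and 335 CPM and the neuronal genes to 204 and 462 CPM in this pair. The part of these cell types in the members' ratios was not tested.

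The wider mesothelial lists are read at E14.5 against 9.64% of all measured genes called higher and 6.40% lower, both above the shares in the E12.5 epithelial pair. Of 12 measured surface and adhesion genes 6 were called higher and 0 lower, of 11 secreted proteins and enzymes 4 higher and 1 lower, and of 9 coelomic transcription factors 4 higher and 1 lower. Podxl, a sialomucin of podocytes and mesothelium, stood at 67.2 and 119 CPM. Tcf21, a factor of visceral mesenchyme, stood at 26.4 and 134 CPM, and Wnt5a, a secreted ligand, at 17.9 and 58.7 CPM, whereas Gata4 went from 195 to 70.5 CPM. The simple keratins, with 0 of 4 called, summed to 2720 and 1755 CPM. Among the 12 genes measured on the list of Wt1 partners and targets, 3 were called higher and 1 lower. Snai2, a repressor of epithelial genes, stood at 29.7 and 150 CPM, and Nphs1, nephrin of the kidney podocyte, went from 22.1 to 5.53 CPM.

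**Figure D4:**
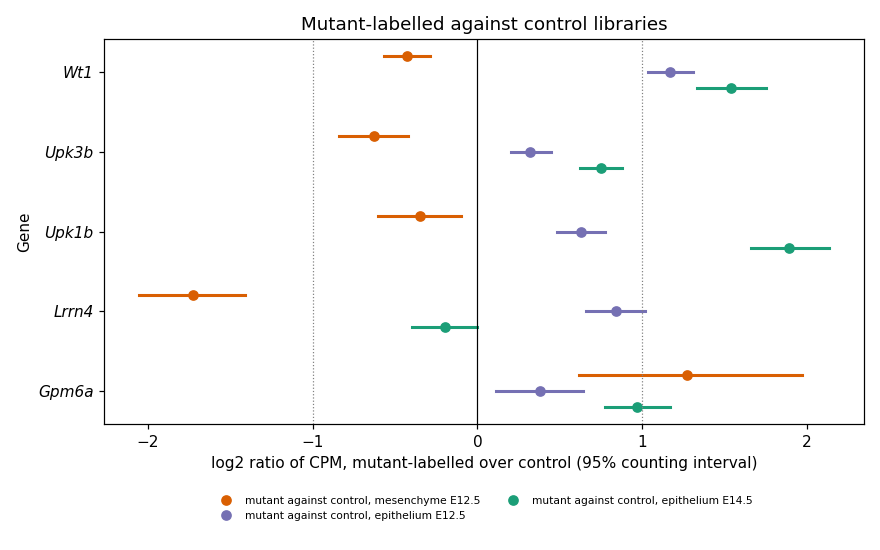
Log2 ratio of CPM, mutant-labelled over control (x axis), for 5 members (y axis) in E12.5 mesenchyme (orange), E12.5 epithelium (violet) and E14.5 epithelium (green), with 95% counting intervals as lines and dotted lines at 2-fold. Wt1, Upk3b and Upk1b lie below 0 in mesenchyme and above 0 in both epithelial pairs, and Lrrn4 lies at -1.73, 0.84 and -0.20.

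From E12.5 to E14.5 in control epithelium, Upk1b was called lower, going from 34.1 to 13.2 CPM (2.60-fold, 2.21 to 3.06). Wt1 was 1.96-fold lower (1.69 to 2.27), just short of the threshold, Gpm6a 1.92-fold (1.62 to 2.27) and Lrrn4 1.42-fold higher, and Upk3b within 1.02-fold. So 1 of 5 measured members was called lower and 0 higher, where 11.2% of all 12136 measured genes were called lower and 6.53% higher. Over the 6 members, with Msln at its bound, the log2 ratios had a median of -0.47, against -0.03 for all measured genes, and the sum went from 158 to 141 CPM (1.12-fold lower, 1.06 to 1.19). Plain CPM, which moved the median of all measured genes to -0.18, gave Wt1 a log2 ratio of -1.12 and a call, and turned Upk3b from slightly higher to -0.13. General epithelial genes summed 1.88-fold higher at E14.5 and general mesenchymal genes 1.13-fold higher.

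Between the epithelial libraries labelled mutant, Gpm6a was called higher at E14.5, going from 15.2 to 44.0 CPM (2.89-fold, 2.48 to 3.37). Upk3b was 1.37-fold higher, Wt1 1.52-fold lower, Lrrn4 1.45-fold lower (1.27 to 1.65) and Upk1b within 1.08-fold. Msln, with no read at E12.5, was at least 24.0-fold higher at E14.5. So 1 of 5 measured members was called higher and 0 lower, where 6.27% of all 12167 measured genes were called higher and 5.89% lower. The 6 members had a median log2 ratio of 0.17 with Msln at its bound, that of all measured genes rounded to 0.00, and the sum went from 253 to 270 CPM (1.07-fold higher, 1.02 to 1.12). General mesenchymal genes summed 1.96-fold higher at E14.5. Relative to their median the sum of the members turned to a log2 ratio of -0.54. On that scale, which shifts all genes alike, Wt1 and Lrrn4 were called lower at -1.23 and -1.16. Gpm6a at 0.90 was no longer called, and the share of all genes called there was not computed. Aldh1a2, at 36.4 and 124 CPM in these libraries, was also higher at E14.5 in the controls, at 31.2 and 84.0 CPM, whereas Igfbp5, which binds insulin-like growth factors, was lower at E14.5 in both, at 633 and 200 CPM here and 591 and 138 CPM in the controls.

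**Figure D5:**
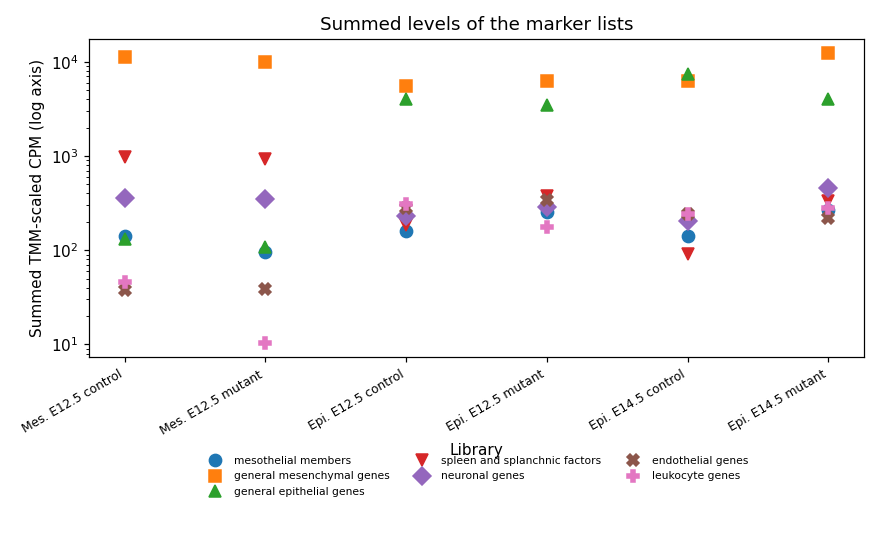
Summed TMM-scaled CPM (y axis, log scale) of the 6 members and of 6 marker lists of other cell types in each library (x axis, Mes. mesenchyme, Epi. epithelium). The members sum to between 96.4 and 270 CPM, while general mesenchymal genes sum to 5512 CPM or more in every library and general epithelial genes fall to 131 and 109 CPM in mesenchyme.

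The likeness of profiles over the 6 libraries was measured as the root mean square distance between log2(CPM + 0.5) values, each gene centred on its own mean, among 11877 genes at 5 CPM or more in at least 1 library. Among the members, Upk3b and Lrrn4 were closest (0.45) and Wt1 and Gpm6a farthest apart (1.78). The 5 genes nearest to Wt1 were Plat (0.20), which encodes tissue plasminogen activator, Trim68 (0.22), Ccdc89 (0.22), Emilin3 (0.22) and Ntn3 (0.23), a netrin. Plat stood at 157 and 107 CPM in mesenchyme, 77.5 and 120 CPM in E12.5 epithelium and 35.8 and 94.1 CPM in E14.5 epithelium, control first. The genes nearest to the mean profile of the 5 more abundant members were Prkcdbp (0.08), a caveolar protein, Dok2 (0.10), Adcy7 (0.18), Pdpn (0.20) and Zbtb7c (0.21). Prkcdbp stood at 39.9 and 31.6 CPM in mesenchyme, 54.9 and 86.3 CPM in E12.5 epithelium and 51.2 and 105 CPM in E14.5 epithelium. Pdpn, podoplanin, is a surface glycoprotein of mesothelium and lymphatic vessels and stood on the list of mesothelial surface genes. With 6 points that share their libraries, these distances describe the profiles alone.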

How the data were processed

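RNA was measured in 6 libraries of sorted dorsal pancreatic bud cells, 1 per group by the labels. The authors deposited raw counts per gene for each library, whole numbers without normalisation, and the table names call them deduplicated, which lowers the counts of abundant genes. Per the submitters' processing notes, the tools include Cufflinks 2.2.1 with Cuffdiff 2.2.1, and the genome is mm10. For the aligner, counting program, annotation and strand setting no name is given in the sources used here. The 5 summary lines of each table stayed out of totals. Of all reads, 4.69% to 8.84% fell on no gene, 1.53% to 1.72% were ambiguous and 13.72% to 20.05% aligned more than once.

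Totals on genes were 14032569 to 20276045, and edgeR 4.0.16 (R 4.3.3) gave TMM factors between 0.941 and 1.047. The rest was done with scipy 1.17.1, pandas 2.3.3, numpy 2.4.6 and matplotlib 3.10.9 under Python 3.11.15. Ratios of 2 libraries carry exact 95% Clopper-Pearson intervals from the conditional binomial distribution, and single levels exact Poisson intervals. There were no molecular identifiers, so reads are not independent molecules, and these intervals and the floors cover only counting error. No read was set to a floor of 3 counts in a ratio and written as at least that fold. The calculation was tested on simulated data. No test across samples was made.

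The members and lists were chosen with earlier results of these data known. The rule for named genes took all members, list genes called in 2 or more comparisons (up to 4 per list by level), and the 5 genes nearest to Wt1 and to the members' mean profile, leaving out sex-linked genes and unnamed gene models. Bnc1, the urothelial genes Upk2, Upk3a, Krt5 and Upk3bl, the gonad and kidney genes Nr5a1, Pax2 and Pax8, and Wt1os were named beside it after their values were seen. Not all genes that the rule takes are printed, some genes and an allele of the mutant are not reported here, and those printed were selected after their values were seen. Alternatives tried were plain CPM, DESeq2 1.42.0 size factors, TMM without the 50 most abundant genes, thinned counts, ratios relative to the general mesenchymal genes, minimums of 1 CPM and none, thresholds of 1.5-fold and 4-fold, and the sum without its highest member.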

Additional observations from a re-analysis of the deposited data

Results flagged for a closer look

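The ratios below lay on opposite sides of 1 in 2 groups under the same contrast, each with a counting interval that left out 1. Each rests on 1 library per group and the difference between groups was not tested. The genotype ratio, mutant-labelled over control on the log2 scale, was -0.43 in E12.5 mesenchyme, 1.17 in E12.5 epithelium and 1.54 in E14.5 epithelium for Wt1. It was -0.63, 0.32 and 0.75 in the same order for Upk3b, and -0.35, 0.63 and 1.89 for Upk1b. For Lrrn4 it was -1.73, 0.84 and -0.20, so that the 2 epithelial stages also lay on opposite sides, but the interval of the E14.5 ratio only just left out 1 and held it under plain CPM and after thinning. The sum of the 6 members gave -0.56, 0.68 and 0.94. Relative to the general mesenchymal genes, Upk3b (-0.42) and the sum (-0.23) were below 0 in the E14.5 pair, the side they take in mesenchyme. On that scale Upk3b in the E12.5 epithelial pair was at 0.12, with an interval (-0.00 to 0.24) that held 0. Upk1b in the mesenchyme pair was at -0.12, and its interval (-0.37 to 0.13) held 0 too. Upk3b and Upk1b thus no longer had ratios on opposite sides with intervals that left out 0. Wt1, Lrrn4 and the sum still did.

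The fraction ratio of Wt1, mesenchyme over epithelium at E12.5, was 0.96 in controls and -0.64 between the mutant and mutant-labelled libraries. Relative to the general mesenchymal genes both were below 0, at -0.28 and -1.36, and no longer lay on opposite sides. The stage ratio, E14.5 over E12.5 in epithelium, was 0.51 for Lrrn4 between the control libraries and -0.53 between those labelled mutant, and in the same order -0.17 and 0.09 for the sum of the members. On the relative scale both of these sums were below 0, at -0.07 and -0.54.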

How the results depend on the processing

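Size factors from DESeq2, TMM without the 50 most abundant genes, and thinning to the smallest library kept all 7 counts of called members within 1.5 times and moved all 7 summed ratios and 35 member ratios by less than their counting interval. In the order mesenchyme against epithelium (control, mutant), genotype (mesenchyme, E12.5 and E14.5 epithelium) and stage (control, mutant), 1, 4, 1, 1, 2, 1 and 1 members were called, and the summed log2 ratios were -0.15, -1.39, -0.56, 0.68, 0.94, -0.17 and 0.09. Plain CPM gave 2 calls and a sum of -0.32 for the control stage pair. The E14.5 epithelial genotype pair had 3 called members in place of 2 after thinning, under plain CPM, with a minimum of 1 CPM and with no minimum. Relative to the general mesenchymal genes, the counts became 4 for the control fraction pair, 0 and 1 for the E12.5 and E14.5 epithelial genotype pairs, and 2 and 2 for the stage pairs, with sums of -1.39, -2.11, -0.33, 0.48, -0.23, -0.07 and -0.54 in that order. This scale takes a list as reference, so its shift is that list's own median and moves all genes alike. With a minimum of 1 CPM, 2 members were called in the mesenchyme genotype pair and 2 in the mutant-labelled stage pair. With no minimum, 2 were called in each of the control fraction, mesenchyme genotype, E12.5 epithelial genotype and both stage pairs, since Msln or Gpm6a then entered. At 1.5-fold, 4 were called in the control fraction pair, 2, 3 and 4 in the genotype pairs and 3 and 2 in the stage pairs. At 4-fold 1 was called in the mutant fraction pair and 0 in the 3 genotype and both stage pairs. The shares of all measured genes called were computed for the main rule alone. The counts of called members under other settings therefore have no such share beside them. Without Upk3b the sums were 0.10 and -1.28 for the fraction pairs, 0.85 and 1.06 for the epithelial genotype pairs and -0.28 and -0.07 for the stage pairs, so the control fraction sum and the mutant-labelled stage sum changed sign. Each group had 1 library, so none could be left out, and depth limits Msln and, in mesenchyme, Gpm6a, which had 27 and 68 counts. A genotype contrast over the 3 mutant-labelled and control pairs, which would count differences between fractions and stages as error, was not run.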

Other observations

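Further list genes went with a member in some comparisons and against one in others. Six2, a kidney progenitor factor, stood at 10.1 CPM in control and 43.3 CPM in mutant mesenchyme, and at 4.14 CPM or less in the 4 epithelial libraries. Among the relatives of the members, Lrrn3, of the same leucine-rich repeat family as Lrrn4, went from 130 CPM in control to 36.6 CPM in mutant mesenchyme (3.56-fold lower, 3.24 to 3.91), and from 14.3 CPM in control to 35.0 CPM in mutant-labelled epithelium at E14.5 (2.45-fold higher, 2.08 to 2.89). Gpm6b, the relative of Gpm6a, went from 29.5 to 12.0 CPM in mesenchyme (2.45-fold lower, 2.06 to 2.93), against the direction of Gpm6a. Muc1, an epithelial mucin, had 1 count in control mesenchyme and none in mutant mesenchyme, and stood at 193 CPM in control and 42.7 CPM in mutant-labelled epithelium at E14.5 (4.52-fold lower, 4.14 to 4.95). Pdpn, near the members' mean profile, was called lower in mesenchyme in both genotypes (2.24-fold, 1.82 to 2.78, and 3.24-fold, 2.56 to 4.15). It was called higher in the E14.5 epithelium labelled mutant (2.27-fold, 1.89 to 2.74). The same values placed it near that profile, so these calls are not a separate observation.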
